A study of Homo sapiens with 6 samples.

Results

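A group of 6 genes of the cytoskeleton, of TEAD transcription and of the extracellular matrix, MYH9, TPM1, ANXA2, TEAD1, COL1A1 and TGFB1, was examined for DNA G-quadruplexes in U2OS cells, an established human osteosarcoma line. The genes were listed by name because earlier results of these data had shown peaks at them, and every peak inside such a gene or within 1 kb of either of its ends was taken. This gave 7 of 3507 peaks of untreated cells and 5 of 2269 peaks of cells treated with 1,6-hexanediol, at 6 of 19821 protein-coding genes. Since the peaks themselves chose the genes, the presence of peaks at them is a description and was not tested.

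G-quadruplexes (G4s) are stacks of guanine tetrads formed by guanine-rich single-stranded DNA, and they are often found at the start sites of active genes. BG4, an antibody fragment that binds G4s, was used for chromatin immunoprecipitation, and the recovered DNA was sequenced (ChIP-seq). All cells were of the same line and were fixed with 1% formaldehyde for 10 min. The untreated cells (Ctrl) and those treated with 1,6-hexanediol (HD), an alcohol that dissolves many biomolecular condensates, each gave 2 ChIP libraries and 1 input library, and the authors deposited 1 peak list per condition. The sources used here give neither the dose nor the duration of hexanediol. Without values per library, no result below has a replicate error, and none was tested between conditions. The sample descriptions tie the HD list to both HD libraries, but the names of all 2269 HD peaks carry the label HD-1. Whether the HD list rests on 1 library or on both could not be settled from the sources used here. A peak is a call above input and no measure of transcription, so the labelled cell type could not be checked against expressed markers.

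The genes act at successive steps of the contractile and matrix programme of mesenchymal cells. MYH9 encodes the heavy chain of nonmuscle myosin IIA, the motor of stress fibres, and TPM1 encodes a tropomyosin, which lies along actin filaments and sets which proteins bind them. ANXA2 encodes annexin A2, which joins membranes to actin in the presence of calcium. TEAD1 encodes a DNA-binding partner of the coactivators YAP and TAZ, which respond to tension on the cytoskeleton and are held back by the Hippo kinases. TGFB1 encodes a secreted growth factor that is a major inducer of matrix genes, and COL1A1 encodes the alpha 1 chain of type I collagen, the main protein of bone matrix.

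MYH9, TPM1 and ANXA2 each had a peak with its summit within 250 bases upstream of a start site, and these windows are shown so that their guanine runs can be set beside the summits. The window upstream of TGFB1 is shown as the contrast, since the peak at that gene lay downstream of it. Each is the 250 bases before a RefSeq transcription start on GRCh38.p14, the assembly of hg38, read 5′ to 3′ on the strand of the gene. The windows are chr22:36387968-36388217 (minus strand) for MYH9, chr15:63048239-63048488 (plus strand) for TPM1, chr15:60397987-60398236 (minus strand) for ANXA2 and chr19:41353923-41354172 (minus strand) for TGFB1. Capitals in ANXA2 and TGFB1 mark matches to the strict motif of 4 runs of GGG with loops of 1 to 7 bases, on either strand. MYH9 and TPM1 had no such match, and capitals there mark the match to the looser motif of 4 runs of GG, with the same loops, that lay nearest to each summit. Matches of each motif were taken without overlap on each strand, so a further match overlapping a taken match is neither marked nor counted. Where the guanines are on the opposite strand the printed strand shows runs of C.
MYH9: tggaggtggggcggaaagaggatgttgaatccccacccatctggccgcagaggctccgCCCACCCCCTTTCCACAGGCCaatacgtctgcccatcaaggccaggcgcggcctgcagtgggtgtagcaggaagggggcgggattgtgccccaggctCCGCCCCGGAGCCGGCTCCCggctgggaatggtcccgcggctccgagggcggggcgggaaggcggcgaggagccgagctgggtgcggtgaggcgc
TPM1: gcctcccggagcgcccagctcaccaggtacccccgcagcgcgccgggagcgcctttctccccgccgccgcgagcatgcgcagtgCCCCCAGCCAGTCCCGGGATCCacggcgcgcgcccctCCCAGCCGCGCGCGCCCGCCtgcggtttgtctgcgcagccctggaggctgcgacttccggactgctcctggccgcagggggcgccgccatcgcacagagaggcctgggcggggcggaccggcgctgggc
ANXA2: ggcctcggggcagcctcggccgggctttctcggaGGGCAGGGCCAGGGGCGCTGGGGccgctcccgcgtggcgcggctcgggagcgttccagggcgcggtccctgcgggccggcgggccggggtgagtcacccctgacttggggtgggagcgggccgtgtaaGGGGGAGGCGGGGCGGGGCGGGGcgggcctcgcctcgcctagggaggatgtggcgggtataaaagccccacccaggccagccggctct
TGFB1: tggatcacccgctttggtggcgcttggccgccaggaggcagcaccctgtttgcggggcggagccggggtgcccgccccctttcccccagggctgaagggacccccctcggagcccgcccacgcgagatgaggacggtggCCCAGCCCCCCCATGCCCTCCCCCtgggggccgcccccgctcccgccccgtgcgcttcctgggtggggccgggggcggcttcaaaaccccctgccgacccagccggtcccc

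The strict motif was thus absent from the window at both start sites with a peak in each condition. It was present at the ANXA2 start, with 2 matches that do not overlap, and at TGFB1, with 1 match on the opposite strand. It occurred in 28.8% of the 22132 upstream windows of protein-coding genes. Among windows whose promoter entry was touched by a peak, it occurred in 37.0% of 1931 (Ctrl) and 37.1% of 1392 (HD). A promoter entry also holds bases past the start, so a touched entry need not have a peak in its upstream window. The shares given below for touched windows follow the same rule. In MYH9 the Ctrl summit was at base 162 of the window, inside a looser match at bases 156 to 175, and the HD summit was at base 84, 5 bp from the match at bases 59 to 79. In TPM1 the summits were at base 121 (Ctrl) and base 110 (HD), 1 bp and 4 bp from the nearest looser matches taken without overlap. Such a match is common, being found in 85.3% of all windows and 98.1% of those touched by a Ctrl peak. The ANXA2 summit was at base 133, between the 2 strict matches at bases 35 to 57 and 163 to 185. The windows held 71.6% G and C in MYH9, 78.4% in TPM1, 78.0% in ANXA2 and 76.8% in TGFB1, against a median of 62.0% over all windows and 68.4% over those touched by a peak of either list. The TEAD motif GGAATG, searched on both strands, had 1 match, at bases 181 to 186 of the MYH9 window, and was found in 10.5% of all windows. The serum response motif known as the CArG box had no match in the 4 windows and was found in 1.18% of all windows.

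Of the 6 genes, 4 carried a Ctrl peak (MYH9, TPM1, ANXA2 and TEAD1), where 13.3% of all protein-coding genes did. Another set of 5 carried an HD peak (MYH9, TPM1, ANXA2, COL1A1 and TGFB1), where 9.54% of all did. TEAD1 was marked in Ctrl only, like 7.02% of all genes, and COL1A1 and TGFB1 in HD only, like 3.3% of all. These shares are background only, because the genes were picked from the same lists. MYH9, TPM1 and ANXA2 had peaks in both lists, as did 6.24% of all genes, but the sites were the same at MYH9 and TPM1 and different at ANXA2. Within 1 kb of a gene end, 4 of the 6 genes had a Ctrl peak (10.9% of all genes) and 3 had an HD peak (8.11% of all genes).

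**Figure D1:**
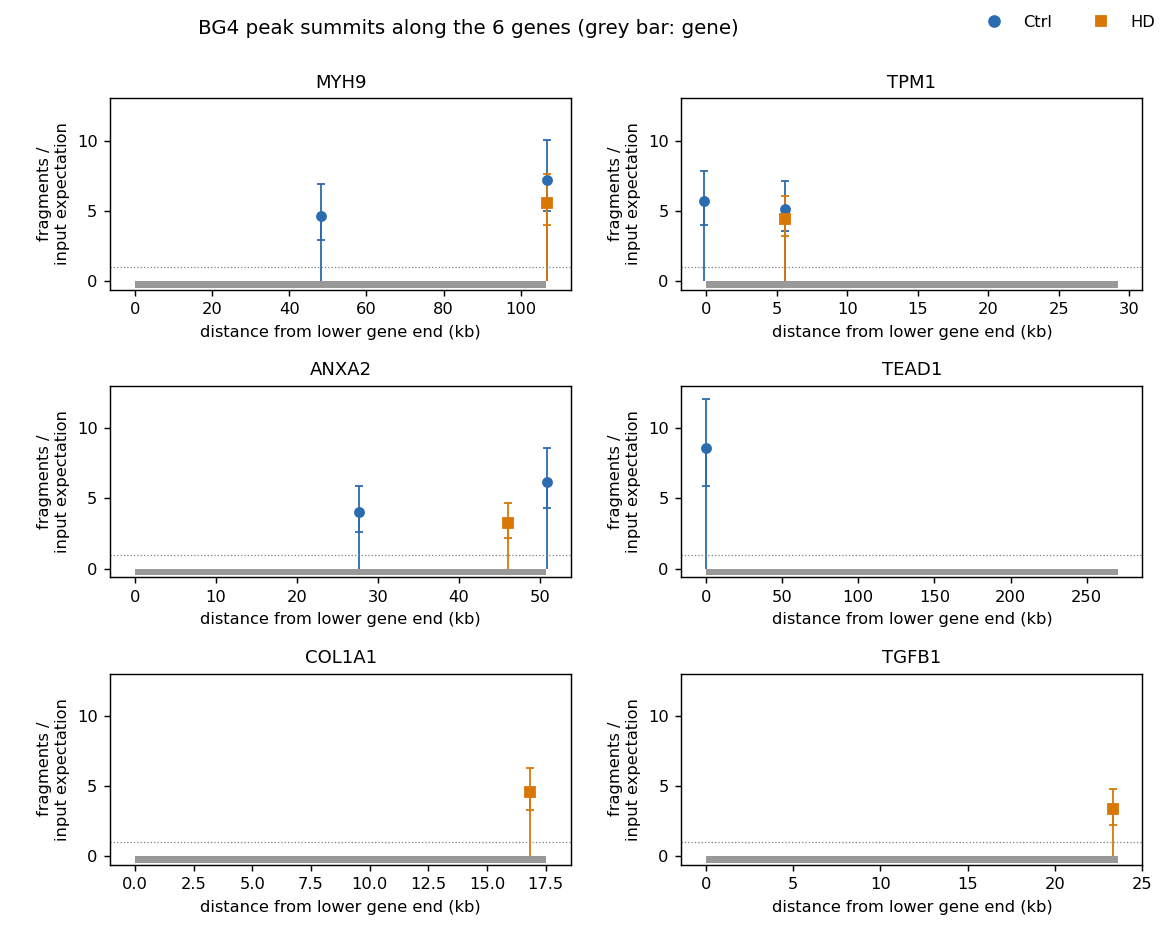
Position of each peak summit along its gene (x axis, kb from the gene end with the lower coordinate, grey bar the gene) and ChIP fragments over the input expectation at the summit (y axis, ratio, bars are exact 95% Poisson intervals, dotted line at 1). Circles are Ctrl and squares HD, and they coincide only at the upper end of MYH9 and 5.60 kb inside TPM1.

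The strength of each peak is given below as the number of ChIP fragments over its summit, recovered from the caller's fold and p, beside the number expected from input at that place. Both depend on depth. Genome-wide the expectation was 3.74 fragments over a position in Ctrl and 5.51 in HD, a ratio of 1.47, so equal numbers in the lists are not equal signal. Intervals are exact 95% Poisson intervals and cover counting error only. Over the 12 peaks the fragment numbers ran from 23 to 37 in Ctrl and from 29 to 41 in HD. Enrichment over input ran from 4.02 to 8.56 in Ctrl and from 3.27 to 5.58 in HD.

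MYH9 (gene ID 4627, chr22:36281280-36387967, hg38) had the clearest shared peak. The Ctrl peak (chr22:36387928-36388483) held 34 fragments (23.5 to 47.5) where input gave 4.73, an enrichment of 7.18 (4.98 to 10.0). In HD (chr22:36387946-36388366) it held 40 fragments (28.6 to 54.5) where input gave 7.17, an enrichment of 5.58 (3.99 to 7.60). The HD enrichment was thus 0.776 times the Ctrl enrichment, with an interval of 0.479 to 1.26 that includes no difference. Over all 1300 Ctrl peaks that overlapped an HD peak, the median of this ratio was 0.921, and 26.5% of them had a lower one. The Ctrl summit was 89 bp and the HD summit 167 bp upstream of the MYH9 start. Both lay in the gap to MYH9-DT, a noncoding gene on the far side of the start, whose nearest end was 266 bp from the Ctrl summit and 188 bp from the HD summit. The 78 bp between the summits compares with a median of 41 bp over all such pairs, and 26.2% of pairs lay farther apart. At 556 bp, the Ctrl peak was among the wider ones, since 4.12% of Ctrl peaks exceeded it.

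MYH9 had another Ctrl peak far inside the gene, at chr22:36329421-36329660, 58.5 kb downstream of the start. It held 23 fragments (14.6 to 34.5) where input gave 4.98, and the nearest HD peak was the one at the start, 58.3 kb away. Among the 2767 protein-coding genes within a factor of 1.5 of the length of MYH9 (107 kb), 4.92% had such an internal Ctrl peak and 2.60% an internal HD peak.

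TPM1 (gene ID 7168, chr15:63042747-63071915) carried peaks at an outer and an inner position, and only the inner one was in both lists. TPM1 is known to use alternative promoters that give long and short tropomyosins. The RefSeq start used here lies 5742 bp inside the gene model. The Ctrl peak over it (chr15:63048145-63048492) held 34 fragments (23.5 to 47.5) where input gave 6.65, an enrichment of 5.12 (3.54 to 7.15). The HD peak there (chr15:63048094-63048438) held 41 fragments (29.4 to 55.6) where input gave 9.21, an enrichment of 4.45 (3.19 to 6.04). The ratio of HD to Ctrl enrichment was 0.870 (0.539 to 1.41), and 41.2% of all shared peaks had a lower one. The summits were 130 bp and 141 bp upstream of this start, 11 bp apart, and 81.0% of all shared pairs were farther apart. Both summits also lay inside the antisense noncoding gene TPM1-AS, more than 1 kb from its ends.

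The outer TPM1 peak was called in Ctrl only (chr15:63042426-63042693), with its summit 181 bp outside the lower end of the gene. It held 37 fragments (26.1 to 51.0), the most of the 7 Ctrl peaks, where input gave 6.48, an enrichment of 5.71 (4.02 to 7.87). The nearest HD peak was the inner one, 5.40 kb away. A count of gene ends alone would therefore list TPM1 as marked in Ctrl only, whereas the peak at its inner start was present in both lists.

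ANXA2 (gene ID 302, chr15:60347151-60397986) had its start marked in Ctrl and other places in the gene marked once in each list. The Ctrl peak at the start (chr15:60397956-60398248, summit 118 bp upstream) held 36 fragments (25.2 to 49.8) where input gave 5.80, an enrichment of 6.20 (4.35 to 8.59). A weaker Ctrl peak 23.2 kb downstream of the start (chr15:60374732-60374948) held 26 fragments (17.0 to 38.1), an enrichment of 4.02 (2.62 to 5.88). The HD peak lay 4.73 kb downstream of the start (chr15:60393122-60393326) and held 31 fragments (21.1 to 44.0) where input gave 9.47, an enrichment of 3.27 (2.23 to 4.65). It overlapped no Ctrl peak, the gap to the Ctrl peak at the start being 4.63 kb. By −log10 q in the authors' deposited table it was among the weak peaks of its list, with 90.8% of HD peaks higher. ANXA2 thus had a peak in each list and no site in common.

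TEAD1 (gene ID 7003, chr11:12674421-12944737) had the highest enrichment of the 12 peaks over the caller's expectation, in Ctrl. The expectation at this peak equalled the genome-wide value, so the enrichment over that value was also 8.56. That was below both TPM1 peaks in Ctrl (9.90 and 9.10) and the Ctrl peaks at the starts of ANXA2 (9.63) and MYH9 (9.10). The peak (chr11:12674161-12674467) had its summit 39 bp outside the lower end of the gene, where transcription starts. It held 32 fragments (21.9 to 45.2) where 3.74 were expected, an enrichment of 8.56 (5.86 to 12.1). By its fold of 6.87 in the authors' deposited table, it ranked 78 of the 3376 Ctrl peaks on the chromosomes compared (1 to 22 and X), and by −log10 q in that table it ranked 300, with 8.86% of peaks higher. No HD peak lay in the 270 kb of the gene or within 300 kb of it, and the nearest HD peak was 603 kb from the Ctrl peak. The surroundings held few calls in either list, with 1 other Ctrl peak within 300 kb of the gene.

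COL1A1 (gene ID 1277, chr17:50184101-50201631) was marked in HD only, by a broad peak inside the gene near its upper end, where transcription starts. The peak (chr17:50200205-50201059) was 855 bp wide, and 1.20% of HD peaks were wider. Its summit, 683 bp inside the gene, held 39 fragments (27.7 to 53.3) where input gave 8.49, an enrichment of 4.60 (3.27 to 6.28). The nearest Ctrl peak was 8.53 kb away. Peaks were denser around COL1A1 than around the other genes. Another 6 Ctrl and 6 HD peaks lay within 300 kb, of which 3 in each list overlapped a peak of the other, the closest being 5.46 kb (Ctrl, 31 fragments) and 5.54 kb (HD, 43 fragments) below the gene.

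TGFB1 (gene ID 7040, chr19:41330323-41353922) carried the weakest call of the 12, by −log10 q in the authors' deposited table. The HD peak (chr19:41353648-41353878) held 29 fragments (19.4 to 41.6) where input gave 8.68, an enrichment of 3.34 (2.24 to 4.80). Its −log10 q of 2.08 in the authors' deposited table was exceeded by 95.1% of HD peaks. The summit was 271 bp downstream of the start and 3 bp from the edge of the peak, and the peak touched none of the 250 upstream bases printed above, which hold the strict motif. It also reached within 1 kb of B9D2, a gene of the ciliary transition zone, whose nearest end was 766 bp from the summit, so the call cannot be assigned to TGFB1 alone. The nearest Ctrl peak was 130 kb away, inside AXL, which encodes a receptor tyrosine kinase.

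**Figure D2:**
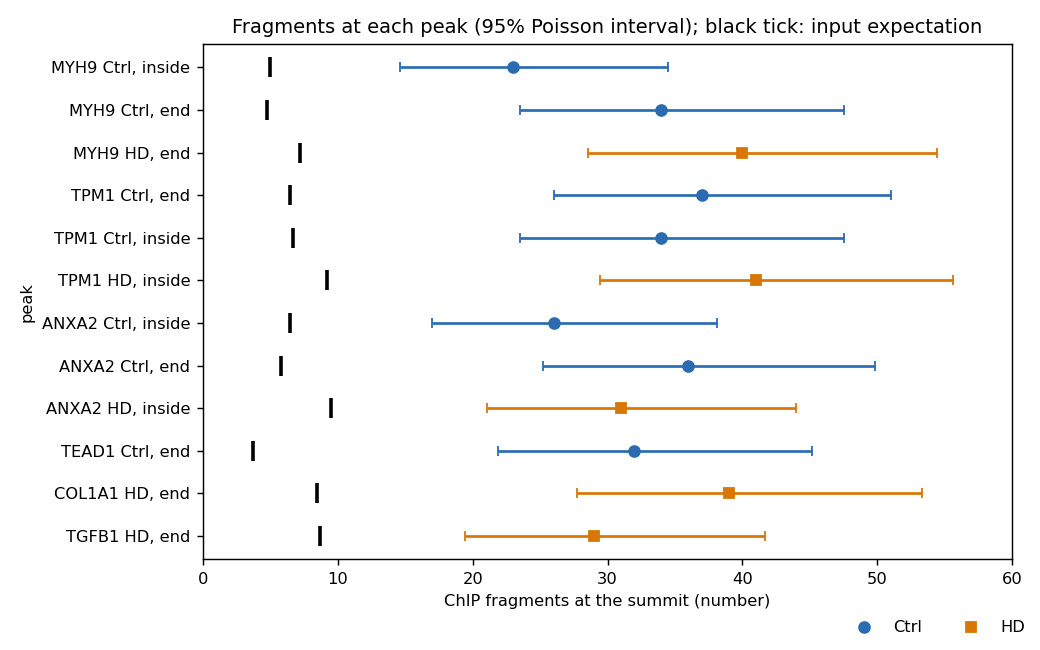
ChIP fragments at the summit of each of the 12 peaks (x axis, number, with exact 95% Poisson intervals) and the number expected from input (black ticks), by gene, list and position at a gene end or inside the gene (y axis). Every interval lies above its expectation, which ranges from 3.74 at TEAD1 in Ctrl to 9.47 at ANXA2 in HD. The peaks were called for exceeding this expectation, so that is no independent result.

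A missing peak is a missing call, so each peak found in a single list was set against what the other list called. Its fragments were scaled to the depth of the other list and compared with the lowest number called there at peaks whose input expectation, scaled likewise, was within 10%. For the start of TEAD1 the 32 Ctrl fragments correspond to 47.2 (32.3 to 66.6) at HD depth, and HD peaks were called from 20 fragments up. The ANXA2 start corresponds to 53.1 (37.2 to 73.5) against 26, and the outer TPM1 peak to 54.6 (38.4 to 75.2) against 28. At these 3 places the same enrichment would have stood above the lowest HD call, provided that input there scaled with depth. The internal Ctrl peaks of MYH9 (33.9, interval 21.5 to 50.9, against 23) and ANXA2 (38.3, interval 25.0 to 56.2, against 28) were not separated from it by counting error. In the other direction, COL1A1 corresponds to 26.4 fragments (18.8 to 36.2) at Ctrl depth, against a lowest Ctrl call of 18. Its interval also lay above that call, though narrowly and with the same proviso on input. TGFB1 (19.7, interval 13.2 to 28.2, against 18) and the internal HD peak of ANXA2 (21.0, interval 14.3 to 29.8, against 20) lay at the edge of what was called in Ctrl. Their absence from the Ctrl list was thus within counting error of a call. Each peak compared here entered because it was called in its own list, which favours high counts. The intervals do not cover that choice, and the other list gives no count at these places. Whether depth accounts for any of the missing calls was therefore not tested.

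**Figure D3:**
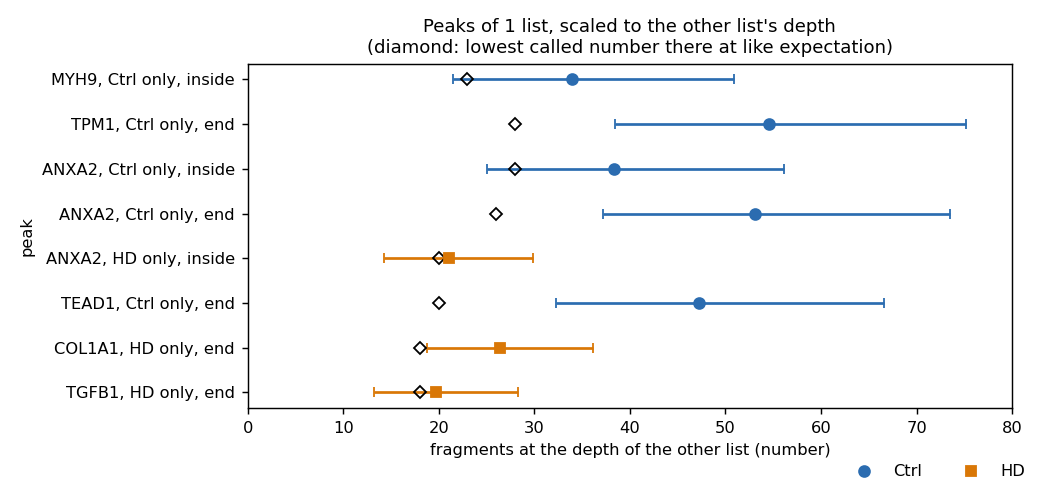
Fragments of the 8 peaks found in 1 list only, scaled to the depth of the other list (x axis, number, with scaled exact 95% Poisson intervals), beside the lowest number called in the other list at like input expectation (diamonds), by gene and position (y axis). The intervals of the Ctrl peaks at the ends of TPM1, ANXA2 and TEAD1 lie to the right of their diamonds. That of the COL1A1 peak in HD does so narrowly, and those of TGFB1 and the internal ANXA2 peak in HD span theirs.

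The genes most like each member were taken among genes with end peaks in the same lists, by the summed difference in log2 fragment number and then in log2 fold. With 1 or 2 values per gene, likeness here means little more than equal peak height. For MYH9, among 1029 genes, these were ROCK1 (34 Ctrl and 40 HD fragments, the same numbers) and CCT6A (34 and 39). For the Ctrl-only end of TPM1 they were CNOT10 and STPG2 (37 fragments each, as at 14 of 1129 genes), for ANXA2 C1orf50 and P3H1 (36 fragments each, as at 10 genes) and for TEAD1 MLEC and UAP1 (32 fragments each, as at 38 genes). For COL1A1 they were TMA7 and DALRD3 (39 HD fragments each, as at 19 of 577 genes) and for TGFB1 they were B9D2, which has the same peak, and PRPF38B (29 fragments each, as at 26 genes).

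A set of 8 lists with 127 genes placed the members among related genes. The lists hold the members, and their other genes were chosen with the earlier results known, so the counts are descriptions. Peaks inside the gene or within 1 kb of its ends were counted, for which the background is 13.3% in Ctrl and 9.54% in HD. Longer genes have more room for a peak, and the median length was 38.4 kb over the lists and 24.5 kb over all protein-coding genes. Without the 6 members, 22 of 121 genes had a Ctrl peak (18.2%) and 23 an HD peak (19.0%). At gene ends alone the same genes gave 16 (13.2%, background 10.9%) in Ctrl and 15 (12.4%, background 8.11%) in HD.

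Myosin II and tropomyosin genes were marked most often of the 8 lists, at 5 of 11 in Ctrl and 6 of 11 in HD, with 5 in both. Over all protein-coding genes the shares were 13.3% and 9.54%. The list counts include MYH9 and TPM1, which were chosen for their peaks and so raise them. MYL12A, a regulatory light chain of myosin II, held 48 Ctrl and 63 HD fragments at a shared peak. TPM3, like TPM1, had its shared peak inside the gene, about 9 kb from an end, with 24 and 39 fragments. TPM2 had 25 Ctrl and 31 HD fragments at separate places, and MYH14, another nonmuscle myosin heavy chain, had 29 fragments in HD only. Of the actin and actin-binding genes, 5 of 20 were marked in Ctrl and 7 in HD. The crosslinkers ACTN1 (41 and 53 fragments) and ACTN4 (28 and 37), and VCL (43 and 41) and TLN1 (31 and 43), encoding vinculin and talin of focal adhesions, had shared end peaks. ACTB, the gene of beta-actin, was marked in Ctrl only (45 fragments where input gave 16.0), and the genes marked in HD only included DIAPH1 and ARPC2 (27 and 28 fragments).

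Annexins and their S100 partners were marked at 3 of 11 in Ctrl and 1 in HD. ANXA5 (21 fragments) and S100A11 (19 fragments) had end peaks in Ctrl only, and ANXA2 was the gene with an HD peak. TEAD factors and Hippo genes were marked at 7 of 22 in Ctrl and 6 in HD. Their median length was 70.6 kb, and at gene ends alone 4 (18.2%) were marked in each list. The background at gene ends was 10.9% in Ctrl and 8.11% in HD. MOB1A, an adaptor of the LATS kinases, had 29 and 47 fragments at a shared end peak. AMOTL2, which binds YAP, had 24 and 27, and the Hippo kinase gene STK3 had 25 and 31 at a shared internal peak. WWTR1, which encodes TAZ, and MOB1B were marked in Ctrl only (21 and 20 fragments), like TEAD1. The WWTR1 summit lay inside the gene, 66802 bp from the nearest end, unlike that of TEAD1. The MOB1B peak was at an end, but its −log10 q was 2.23 against 13.3 for TEAD1. TEAD4 and NF2, which encodes the tumour suppressor merlin, were marked in HD only, with 28 and 30 fragments. The TEAD4 gene held 3 HD peaks, 1 of them at a gene end, and no Ctrl peak, so TEAD1 and TEAD4 were marked in opposite lists. The TEAD4 peak with 28 fragments, where input gave 5.60, lay inside the gene, unlike the TEAD1 peak. The comparison with the lowest call of the other list was made for the members only. Whether the TEAD4 peaks would have been called at Ctrl depth was therefore not tested. AXL was marked in both lists at places that did not overlap (23 and 33 fragments).

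TGF-beta pathway genes were marked at 3 of 20 in Ctrl and 5 in HD. Their median length was 68.4 kb, and at gene ends alone 2 (10.0%) were marked in each list. SKIL, a repressor of SMAD proteins, had 18 and 23 fragments and TGIF1, a SMAD corepressor, 42 and 59 at shared peaks. SMURF2, a ubiquitin ligase of the pathway, was marked in Ctrl only (27 fragments). The receptor gene TGFBR1 (32 fragments) and SMAD3 (34 fragments) were marked in HD only, like TGFB1, but inside the gene rather than at an end. The TGFBR1 summit was 1316 bp from an end, close to the 1 kb limit, and the SMAD3 summit 39869 bp. Collagen and matrix genes were marked at 3 of 25 in each list, 12.0%, with 1 gene in both. That was PLOD1, a lysyl hydroxylase of collagen, with 22 and 32 fragments. The prolyl hydroxylase genes P4HA1 (29 fragments, Ctrl) and P4HA2 (42 fragments, HD) and the lysyl oxidase gene LOXL2 (22 fragments, Ctrl) were each marked in a single list. COL1A1 was the only collagen chain gene of the list with a peak. None of the 10 osteoblast lineage genes, RUNX2 and SP7 among them, and none of the 8 epithelial, blood and liver genes carried a peak in either list. Their median lengths were 10.3 kb and 17.5 kb, under the 24.5 kb of all protein-coding genes. Over all such genes 13.3% had a Ctrl peak and 9.54% an HD peak, and lists this small cannot set a count of none apart from those shares. Of the 6 osteosarcoma and mesenchymal markers, COL1A1, COL1A2, FN1, SPARC, RUNX2 and TWIST1, only COL1A1 did, in HD.

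**Figure D4:**
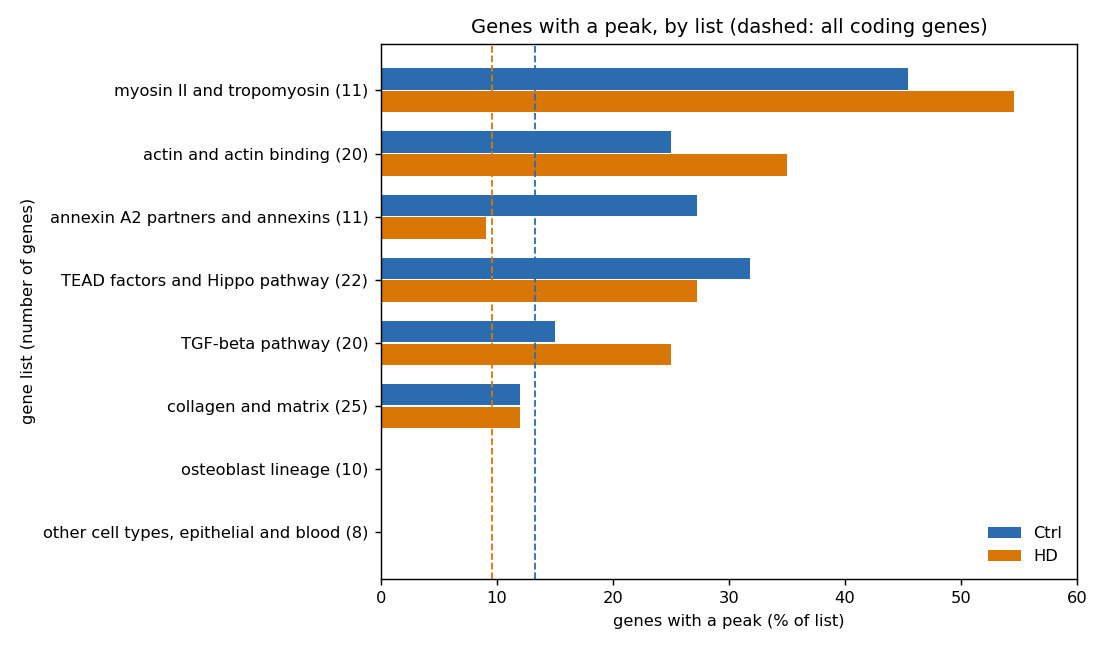
Share of the genes of each list with a peak inside the gene or within 1 kb of its ends (x axis, % of the list) in Ctrl and HD (bars), by list with its number of genes (y axis). Dashed lines mark all protein-coding genes, 13.3% in Ctrl and 9.54% in HD. The myosin II and tropomyosin list has the longest bars, which include MYH9 and TPM1, chosen for their peaks.

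At the 14 genes of the lists with overlapping peaks, the ratio of HD to Ctrl enrichment ran from 0.705 at ACTN4 to 1.67 at TPM3, with a median of 0.852 against 0.921 over all 1300 shared peaks. It was under 1 at 9 of the 14 genes, MYH9 and TPM1 included, as it was at 60.8% of all 1300 shared peaks. Each of the 14 counting intervals included 1.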

How the data were processed

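BG4 ChIP-seq was made from U2OS cells, untreated or treated with 1,6-hexanediol. Tools named in the submitters' processing notes are Bowtie2 2.5.0, SAMtools, MACS2 2.2.7.1 and FastQC 0.11.9, with hg38 as the build. The sources used here do not give settings or duplicate removal. The authors deposited 1 peak list per condition, with a fold (a ratio of pileup to local input expectation), −log10 p and −log10 q per peak, a display score and a summit position. The deposited score was not used. Inputs enter only through the caller's expectation.

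Fold is (pileup + 1) / (expectation + 1), and p is the upper Poisson tail of the pileup, a whole number of fragments times a scale (0.927 for Ctrl, 0.715 for HD). Fragment numbers were recovered from both values, within 0.01 of the deposited −log10 p for 3489 of 3507 Ctrl and 2248 of 2269 HD peaks. Each of the 12 peaks had 1 solution. On simulated lists of 2000 peaks, 100% of numbers were recovered. Genes came from a RefSeq table (GRCh38.p14), and start sites, strands and sequences from RefSeq promoters, which held 4 of the 6 genes. All 127 list genes matched. Peaks on chromosomes 1 to 22 and X were used, which left out 131 Ctrl and 97 HD peaks.

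The members, the gene lists and the rules were chosen with earlier results of these data known. Named were the 6 genes, genes with an end within 1 kb of their peaks, list genes with a peak (1 of them is not reported here), and the 2 genes most like each member. No test was made. Alternatives were other windows, a stricter −log10 q, equal list lengths, other definitions of overlap and of marking, and the genome-wide expectation. Python 3.11.15, pandas 2.3.3 and SciPy 1.17.1 were used.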

Additional observations from a re-analysis of the deposited data

How the results depend on the processing

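Most values changed little with the choices tried: of 72 alternative values, 62 stayed within 1.5 times the main count or inside the counting interval. Equal list lengths meant 2172 peaks, the size of the HD list on the chromosomes compared, so only Ctrl values could change. The Ctrl peaks at members then fell from 7 to 5, without the internal peaks of MYH9 and ANXA2. With −log10 q of at least 3, the member genes with an HD peak became 3 (MYH9, TPM1 and COL1A1) and the HD peaks at members became 3, against 5 and 5, since the ANXA2 and TGFB1 calls lie under that value. With a window of 500 bp, COL1A1 was no longer marked at its end, though still inside the gene. Set against the genome-wide instead of the local expectation, enrichment was higher at 11 of the 12 peaks, all but TEAD1, because input there was above the genome-wide level, and at 8 of them it left the counting interval. In TPM1 it became 9.90 at the outer and 9.10 at the inner Ctrl peak and 7.44 in HD. In ANXA2 it became 9.63 at the start and 6.96 inside in Ctrl and 5.62 in HD, and it was 7.08 at COL1A1 and 5.26 at TGFB1. TEAD1 then no longer had the highest enrichment. No paired analysis was possible because each condition has 1 peak list with no value per replicate, and no replicate could be left out for the same reason. Depth limits what a missing call shows at TGFB1 and at the internal peaks of MYH9 and ANXA2, whose scaled intervals include the lowest number called in the other list.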
